A study of Mus musculus with 28 samples.

Results

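The Ugt2b gene cluster of the mouse was followed in liver through 8 genes, Ugt2b38, Ugt2b37, Ugt2b5, Ugt2b1, Ugt2a3, Ugt2b36, Ugt2b35 and Ugt2b34, out of 18820 genes named by a probe set of their own on the array. The genes were chosen by symbol as the UDP-glucuronosyltransferases of the cluster, and each had exactly 1 probe set that names it alone. Ugt2b38 was singled out because its measured level was already known to be lower at 24 than at 6 months. Its values in that comparison are therefore a description. The other comparisons each share a group of livers with it, so the choice bears on them too, and no p-value is given for Ugt2b38 in any of them.

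RNA came from the livers of 28 male C57BL/6J mice, 1 array for each mouse. A group of 8 mice ate a moderate-fat food until 12 months, was then switched to the intermittent diet and was sampled at 24 months. The other groups had been on the intermittent diet since 9 weeks of age and were sampled at 6 months (n = 6), 12 months (n = 7) or 24 months (n = 7). On the intermittent diet, weeks of unlimited food with 25% of its energy as fat (AIN-93W-MF) took turns with weeks of restricted food, set to 60% of what control mice ate in energy terms. All mice were fasted for 4 hours, received carboxymethyl cellulose by gavage and were fasted for 6 more hours before the liver was taken. Which week of the cycle the mice were in at sampling is not stated in the labels, and age and time on the diet cannot be told apart in the lifelong groups. Mice kept on 1 food throughout were not analysed here, so every group compared carries the intermittent diet.

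UDP-glucuronosyltransferases are enzymes of the endoplasmic reticulum membrane that join glucuronic acid, taken from UDP-glucuronate, to fat-soluble molecules and so make them soluble enough to leave in bile or urine. The Ugt2b enzymes of rodent liver act on steroid hormones, bile acids and many drugs. Ugt2a3 belongs to the same family, and its human counterpart is known to conjugate bile acids. Several Ugt2b genes of mouse liver, Ugt2b1 and Ugt2b38 among them, are known to be expressed more in males than in females.

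In the RefSeq annotation of GRCm38.p6 the genes lie side by side on chromosome 5 in the order Ugt2b34, Ugt2b1, Ugt2b35, Ugt2b36, Ugt2b5, Ugt2b37, Ugt2a3 and Ugt2b38. No other protein-coding gene lies between the first and the last of them, since the stretch holds 8 protein-coding genes and 8 of them are members. Ugt2b35 is on the plus strand and the others are on the minus strand. RefSeq promoter windows of 300 bases, 250 before and 50 after the annotated start, were available for all 8 genes. The windows of Ugt2b38, Ugt2b37 and Ugt2b5 are shown because those of Ugt2b37 and Ugt2b5 are the closest to that of Ugt2b38. These 3 genes were also the ones with the largest differences between 24 and 6 months. The window of Ugt2b36, which differed little, is shown beside them. Each reads 5′ to 3′ on the gene's own strand, and capitals mark the match to the motif GTTANNNNTTAAC. The windows are chr5:87424154-87424453 for Ugt2b38, chr5:87254739-87255038 for Ugt2b37, chr5:87140291-87140590 for Ugt2b5 and chr5:87092506-87092805 for Ugt2b36, all on the minus strand.
Ugt2b38: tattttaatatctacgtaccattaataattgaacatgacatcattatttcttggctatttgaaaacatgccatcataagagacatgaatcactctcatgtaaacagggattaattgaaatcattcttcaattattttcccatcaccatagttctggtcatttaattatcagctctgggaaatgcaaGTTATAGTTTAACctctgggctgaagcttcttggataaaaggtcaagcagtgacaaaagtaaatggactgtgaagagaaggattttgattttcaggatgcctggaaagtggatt
Ugt2b37: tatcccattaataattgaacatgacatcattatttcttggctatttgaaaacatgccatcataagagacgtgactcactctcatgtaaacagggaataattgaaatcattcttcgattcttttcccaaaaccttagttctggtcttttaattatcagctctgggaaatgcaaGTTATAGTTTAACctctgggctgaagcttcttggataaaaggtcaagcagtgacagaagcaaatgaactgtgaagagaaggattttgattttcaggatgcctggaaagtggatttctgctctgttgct
Ugt2b5: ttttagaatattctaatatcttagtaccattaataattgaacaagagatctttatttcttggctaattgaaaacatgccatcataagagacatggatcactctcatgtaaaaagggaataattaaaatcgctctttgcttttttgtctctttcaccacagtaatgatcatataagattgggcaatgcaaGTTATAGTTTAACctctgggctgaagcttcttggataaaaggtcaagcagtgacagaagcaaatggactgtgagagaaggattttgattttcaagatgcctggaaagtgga
Ugt2b36: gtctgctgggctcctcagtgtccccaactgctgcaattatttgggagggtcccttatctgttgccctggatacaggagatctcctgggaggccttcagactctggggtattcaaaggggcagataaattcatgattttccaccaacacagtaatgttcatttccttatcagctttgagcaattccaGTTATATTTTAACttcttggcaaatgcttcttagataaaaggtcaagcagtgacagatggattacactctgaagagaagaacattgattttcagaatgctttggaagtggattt

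After global alignment, 91.0% of the 300 bases were identical between the windows of Ugt2b38 and Ugt2b37, 87.0% between Ugt2b38 and Ugt2b5, and 82.3% between Ugt2b37 and Ugt2b5. The other 25 pairs of members shared 46.7% to 66.3%, with a median of 52.7%. The longest run common to the windows of Ugt2b38, Ugt2b37 and Ugt2b5 was 62 bases long, and among 32851 RefSeq promoter windows only these 3 held it.
shared run: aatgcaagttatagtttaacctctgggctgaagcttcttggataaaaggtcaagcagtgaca
Close promoter sequence and close coding sequence often go together in a gene cluster. The sequences of the array probes were not used here, so signal shared between Ugt2b38, Ugt2b37 and Ugt2b5 through near-identical transcripts was not tested, and their values are uncertain to that degree.

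The motif GTTANNNNTTAAC is a spaced form of the site known for the hepatocyte factor HNF1, and sites of this kind are known in rodent Ugt2b promoters. It was chosen after these windows had been read. On either strand it was found in 7 of the 8 members, in all but Ugt2a3, and in 0.189% of the 32851 windows. Its first base lay at -64 in Ugt2b38, -78 in Ugt2b37, -61 in Ugt2b5 and -64 in Ugt2b36, counted from the annotated start as base 0. The shorter form GTTAAT, searched on both strands, was found in 1 of the 8 members, Ugt2a3, which holds it at 2 places, and in 7.1% of all windows. The motif TTCNNNGAA, the form known for the growth hormone signal transducer STAT5, was in 0 of 8 members and in 8.3% of all windows. The spaced motif and GTTAAT overlapped in none of the members. The spaced motif stood both in members with large differences between the ages and in members with small ones, so its presence did not separate them.

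**Figure D1:**
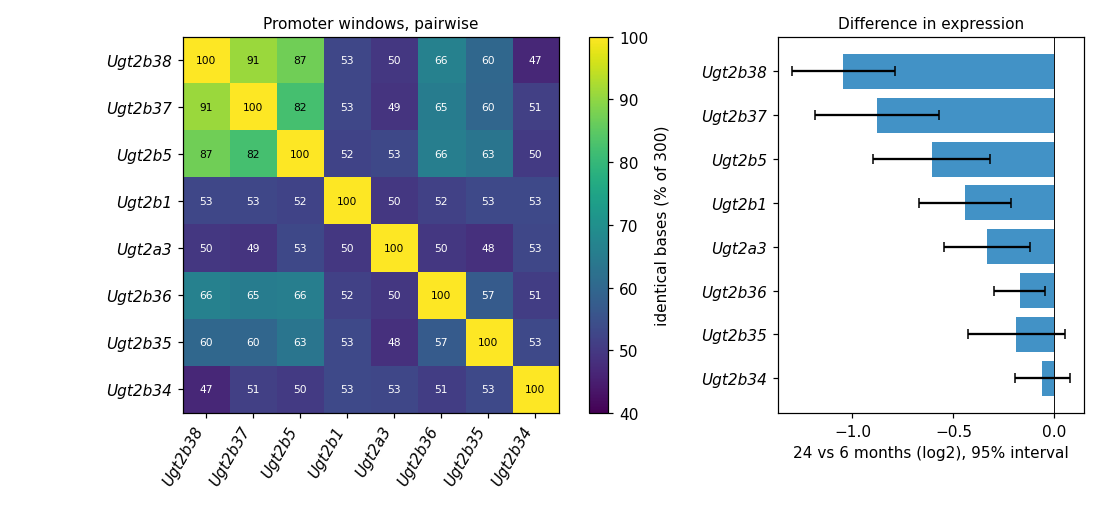
The left panel gives the percentage of 300 promoter bases identical between each pair of genes after alignment. The right panel gives the difference in expression at 24 against 6 months (log2) with its 95% interval. Ugt2b38, Ugt2b37 and Ugt2b5 form the block of 82.3% to 91.0% identity and have the largest of the 8 differences.

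Expression values are log2 signals from the arrays, so a difference of 1 is a factor of 2. The whole-array background was as follows: the array medians lay between 5.23 and 5.31. The 11 measured hepatocyte markers, among them albumin, averaged 12.75 to 12.92 in the livers of 24 months, against 12.85 to 12.93 in those of 6 months, and none of the 11 passed between these ages. The difference was below 0 in 8 of the 11, with a median of -0.048, beside -0.0016 over all genes. It was largest in Hnf4a, at -0.27 (limma adjusted p = 0.0815). Ugt2b38 averaged 9.01 over all arrays, above 88.3% of the probe sets. The probe sets of different genes differ in brightness for reasons of design, so levels are compared here only within a gene.

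Ugt2b38 had lower values in each older lifelong group. Its lowest, median and highest levels in the 6-month livers were 9.47, 9.65 and 9.89; the 12-month livers had 8.95, 9.27 and 9.45, and the 24-month livers had 8.24, 8.51 and 9.12. Every liver of 12 months and every liver of 24 months lay below every liver of 6 months, while the groups of 12 and 24 months overlapped. Switched livers, at 8.15, 8.59 and 8.85, covered much the same range as lifelong livers of 24 months.

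The mean level of Ugt2b38 was 8.63 ± 0.284 at 24 months and 9.68 ± 0.156 at 6 months (SD, n = 7 and 6). The fitted difference was -1.05 (SE 0.124, 95% interval -1.30 to -0.79), which is a level 2.07-fold lower. Array names carry 1 of 3 prefixes, and the difference was -1.10, -0.67 and -1.25 within prefixes G150, G151 and G152. Prefix G150 held 4 livers of each of these ages and G151 held 1 of each. G152 held 1 liver of 6 months and 2 of 24 months. For every member, the G151 and G152 values therefore rest on 1 liver of 6 months each.

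Ugt2b37 was the member with the next largest difference between 24 and 6 months. Its level ran from 6.73 through a median of 6.85 to 7.92 at 6 months, from 6.02 through 6.47 to 6.80 at 12 months, and from 5.95 through 6.21 to 6.55 at 24 months. The livers of 24 months lay wholly below those of 6 months. Relative to 6 months, Ugt2b37 fell by 0.88 at 24 months (SE 0.15, limma with Benjamini-Hochberg adjusted p = 0.0018), 1.84-fold lower. The highest value of 6 months, 7.92 in replicate 6, stood well above the median of its group. Within the prefixes the difference was -0.66 in G150, -0.66 in G151 and -1.68 in G152, the last of which rests on that liver alone for 6 months.

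Ugt2b5, a steroid-conjugating enzyme and a main Ugt2b gene of mouse liver, also fell. In the 6-month livers its lowest, median and highest levels were 10.85, 11.14 and 11.36; the 12-month livers had 10.52, 10.86 and 11.01, and the 24-month livers 10.32, 10.49 and 10.69. No liver of 24 months reached the lowest of 6 months. The difference was -0.61 (SE 0.141, limma adjusted p = 0.0135), 1.52-fold lower, with -0.69, -0.53 and -0.54 within prefixes G150, G151 and G152.

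Ugt2b1, one of the male-biased members, fell less. The 6-month livers measured 11.77, 11.93 and 12.24 at their lowest, median and highest, the 12-month livers 11.58, 11.71 and 11.87, and the 24-month livers 11.25, 11.47 and 11.83. Of the 7 livers of 24 months, 5 lay below the lowest liver of 6 months and the groups overlapped. The difference was -0.44 (SE 0.111, limma adjusted p = 0.0212), 1.36-fold lower. Its within-prefix values were -0.42, -0.10 and -0.77 for G150, G151 and G152. The call was lost without replicate 6 of 6 months, where limma gave an adjusted p of 0.0906, and with the replicate number as a block, where it gave 0.0558.

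The other 4 members did not pass between 24 and 6 months. Ugt2a3 differed by -0.33 (SE 0.103, limma adjusted p = 0.0603), with 5 of 7 livers of 24 months below the lowest of 6 months. Within G151, which held 1 liver of each age, it differed by 0.12. It passed under 4 of 11 alternative settings, at limma adjusted p from 0.0317 to 0.0445, so it lies at the threshold. Ugt2b36 differed by -0.17 (adjusted p = 0.103 in limma) and Ugt2b35 by -0.19 (adjusted p = 0.402 in limma). Ugt2b34, the member at the far end of the cluster from Ugt2b38, had medians of 11.96 at 24 months and 12.03 at 6 months. Its difference was -0.06, with a 95% interval from -0.20 to 0.07, so a change of the size seen in Ugt2b5 lies outside that interval.

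Counted together, 4 of 8 members passed as lower at 24 than at 6 months, and 0 passed as higher. Over all 35556 probe sets, 4.73% passed, 2.63% as lower and 2.10% as higher. Ugt2b38 is 1 of the 4 and its fall was known when it was chosen, so the count without it is 3 of the other 7 members. That count is not free of the choice either. With group and prefix removed, the other members had r of 0.491 to 0.741 with Ugt2b38 in the same livers. Signal shared with Ugt2b37 and Ugt2b5 was not tested. The difference was below 0 in 8 of 8 members, Ugt2b38 among them. The members varied together from liver to liver, so these signs are not independent. The median difference of the 8 members was -0.39, beside -0.0016 over all genes. Without Ugt2b38 the middle difference was that of Ugt2a3, -0.33. Apart from Ugt2b38, the groups of 24 and 6 months did not overlap, with 24 months lower, for 2 members, Ugt2b37 and Ugt2b5, against 0.830% of all probe sets. With the arrays of prefix G150 alone, 0 of the 7 members other than Ugt2b38 passed in limma. There the differences of Ugt2b37, Ugt2b5 and Ugt2b1 were -0.66, -0.69 and -0.42, at limma adjusted p of 0.0695, 0.128 and 0.203.

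**Figure D2:**
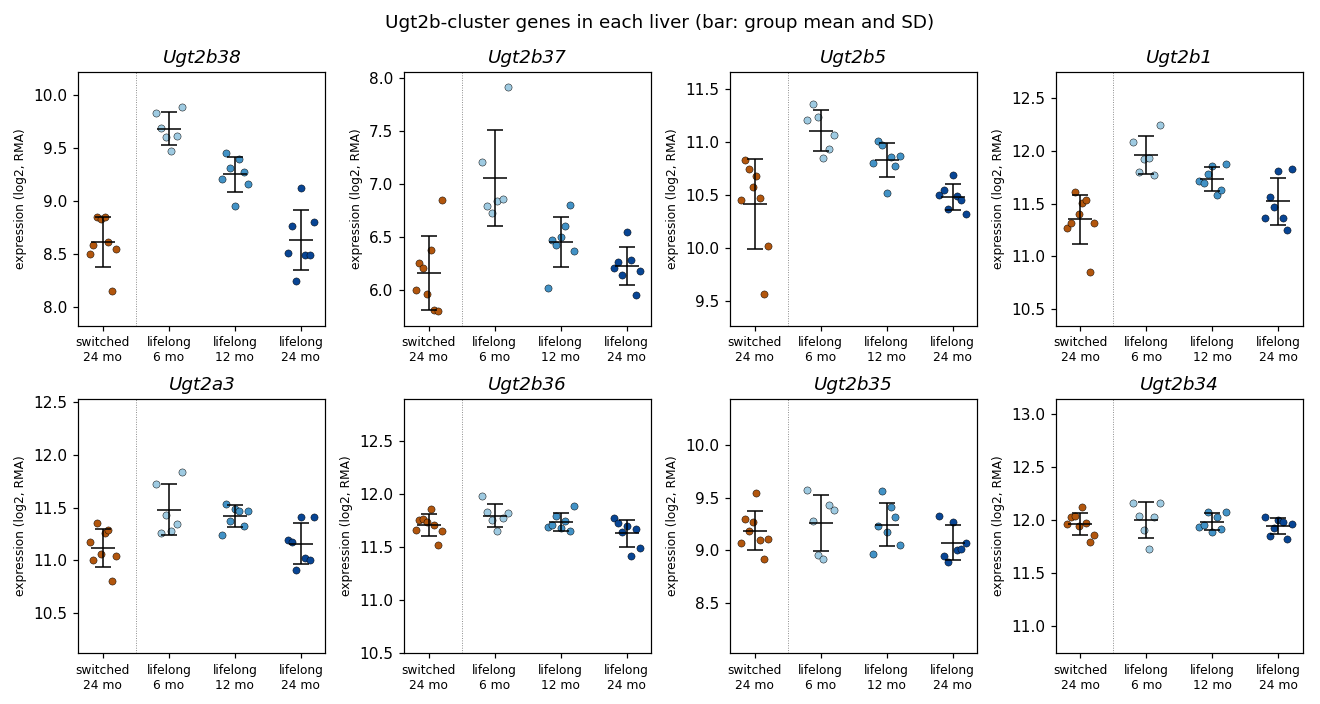
Expression (log2) of each member in each of the 28 livers, by group, with the group mean and SD as a bar. Every panel spans the same 2.4 log2 units. Ugt2b38 lies lower at 24 months, 8.24 to 9.12, than at 6 months, 9.47 to 9.89, while Ugt2b34 keeps nearly the same level in all groups.

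Between 12 and 6 months, none of the 7 members other than Ugt2b38 passed, and 0.591% of all probe sets did. The difference of Ugt2b38 was -0.43 (SE 0.124), against the same livers of 6 months whose levels were part of the reason for its choice. Its groups did not overlap, with 9.45 as the highest liver of 12 months and 9.47 as the lowest of 6 months, a gap smaller than the spread within either group. Among all probe sets, 0.329% had the groups apart in this direction, and of the 7 other members 0 did. Ugt2b37 differed by -0.61 (SE 0.15, limma adjusted p = 0.0595) and passed under 3 of 11 alternative settings, at limma adjusted p from 0.0352 to 0.0431. The other members lay closer together, from -0.27 in Ugt2b5 to -0.01 in Ugt2b35. Of the 7 members other than Ugt2b38, 1 had an unadjusted p under 0.05 in limma, Ugt2b37, beside 13.1% of all probe sets. The median of all 8 members, Ugt2b38 among them, was -0.14, beside 0.0068 over all genes.

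Between 24 and 12 months, none of the 7 members other than Ugt2b38 passed, and 0.0253% of all probe sets did. Ugt2b38 differed by -0.62 (SE 0.12), with 8.63 ± 0.284 at 24 months and 9.25 ± 0.167 at 12 months (SD, n = 7 each). Of the 7 livers of 24 months, 6 lay below the lowest of 12 months, and replicate 4 of 24 months, at 9.12, lay among them. The livers of 24 months are those whose low levels were known when Ugt2b38 was chosen. No member had its groups fully apart, against 0.163% of all probe sets. Of the 7 members other than Ugt2b38, 3 had an unadjusted p under 0.05 in limma, Ugt2b5, Ugt2b36 and Ugt2a3, beside 11.1% of all probe sets. Ugt2a3 differed by -0.27 (limma adjusted p = 0.297) and Ugt2b5 by -0.34 (limma adjusted p = 0.339). The 3 comparisons of ages share livers, so their values for a gene are not independent of one another.

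Switching to the intermittent diet at 12 months, rather than eating it since 9 weeks, was compared in livers of 24 months. None of the 7 members other than Ugt2b38 passed in either direction, beside 0.0197% of all probe sets. None of these 7 had an unadjusted p under 0.05 in limma, beside 7.58% of all probe sets. Ugt2b38 averaged 8.62 ± 0.236 in switched livers and 8.63 ± 0.284 in lifelong livers (SD, n = 8 and 7). The difference was -0.02, with a 95% interval of -0.26 to 0.22, and the lifelong livers of 24 months are again those known to be low when the gene was chosen. For the other members the difference ran from -0.16 in Ugt2b1 (95% interval -0.38 to 0.05) to 0.11 in Ugt2b35 (95% interval -0.11 to 0.34). Differences were below 0 in 4 of 8 members, Ugt2b38 among them, and the median of the 8 was -0.0069, beside -0.0025 over all genes.

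Switched replicate 7 was the lowest liver of its group for all 8 members. It measured 10.85 in Ugt2b1, against a group median of 11.36. The fit without it gave switched against lifelong differences of 0.04 in Ugt2b38, -0.10 in Ugt2b1, 0.03 in Ugt2b5 and 0.02 in Ugt2a3. Among livers of 6 months, replicate 4 was the lowest for 5 members and replicate 6 the highest for 5.

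**Figure D3:**
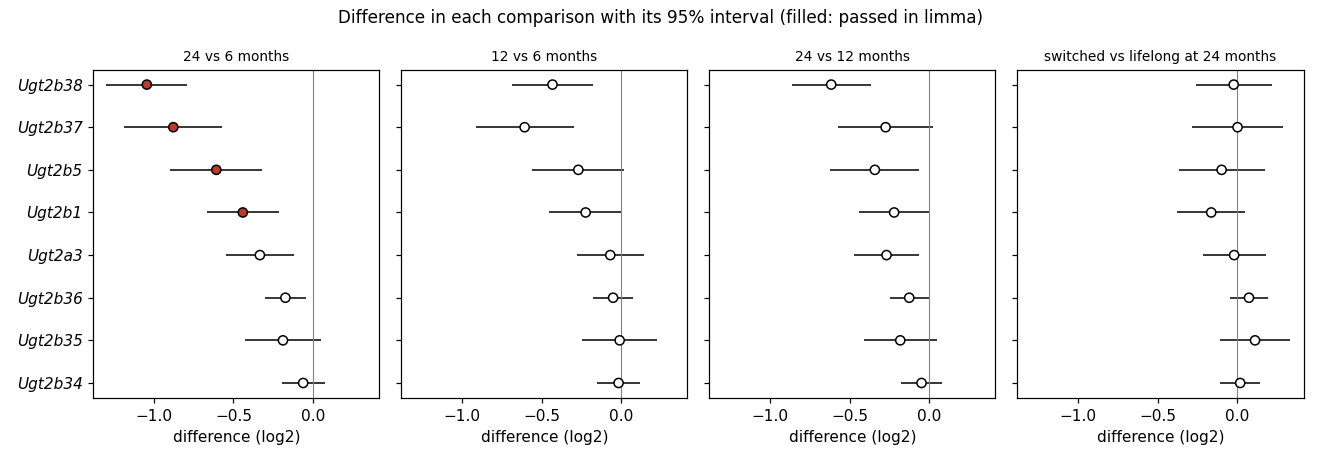
Difference of each member in each of the 4 comparisons (log2, horizontal axis) with its 95% interval; filled points passed at an adjusted p of 0.05 in limma. In 24 against 6 months, 4 points are filled and run from -1.05 in Ugt2b38 to -0.44 in Ugt2b1; in switched against lifelong livers all points lie between -0.16 and 0.11. The points of Ugt2b38, filled or open, are a description, since its fall was known beforehand.

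Ugt2b38 was then set against its neighbours within each liver. The deviation of Ugt2b38 from its own mean over the 28 livers was taken, less the median of the same deviation over the other 7 members, so that changes rather than levels were compared. The result averaged 0.47 ± 0.0628 at 6 months (n = 6), 0.18 ± 0.155 at 12 months (n = 7) and -0.24 ± 0.178 at 24 months (SD, n = 7). Every liver of 6 months was above 0, from 0.39 to 0.58. Livers of 12 months ran from -0.04 to 0.40, and livers of 24 months from -0.46 to 0.03, so Ugt2b38 lay lower relative to its neighbours in each older group. In switched livers the value averaged -0.29 ± 0.136 (SD, n = 8) and ran from -0.47 to -0.07, beside -0.46 to 0.03 in lifelong livers of 24 months. The neighbours moved the same way but less: their median deviation averaged -0.14 at 24 months and 0.21 at 6 months, beside -0.38 and 0.68 for Ugt2b38. No test was made, since the contrast was proposed with the fall of Ugt2b38 known. Ugt2b37, whose 95% interval at 24 against 6 months, -1.19 to -0.57, overlaps that of Ugt2b38, is among the neighbours, so the contrast holds against their median and not against each of them.

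**Figure D4:**
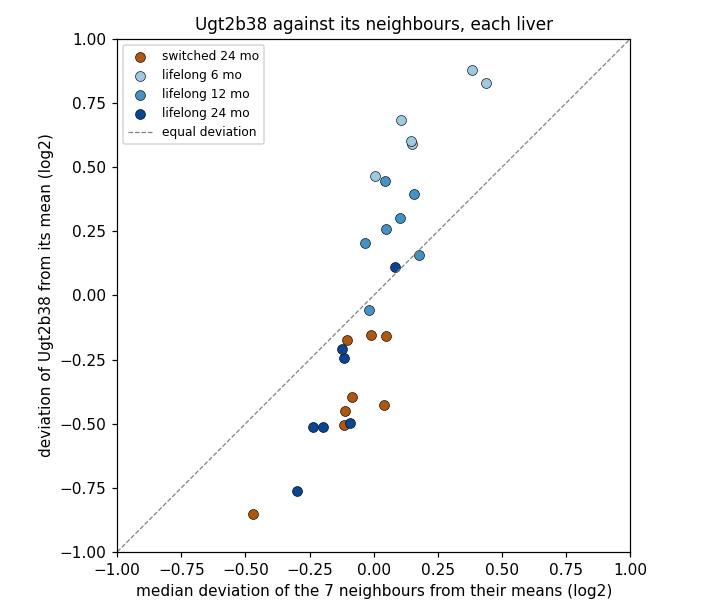
Deviation of Ugt2b38 from its mean (vertical axis, log2) against the median deviation of the other 7 members (horizontal axis, log2), 1 point for each liver, coloured by group. The dashed line marks equal deviation. All livers of 6 months lie above the line, by 0.39 to 0.58, and all switched livers lie below it, by 0.07 to 0.47.

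The members also varied together from liver to liver. Over the 28 livers the 28 pairs of members had Pearson r from 0.308 to 0.874, with a median of 0.566. After the group and prefix means were removed, r ran from 0.187 to 0.803, with a median of 0.524. Ugt2b38 had r of 0.853 with Ugt2b5, 0.849 with Ugt2b1, 0.815 with Ugt2a3, 0.769 with Ugt2b37, 0.568 with Ugt2b36, 0.48 with Ugt2b35 and 0.393 with Ugt2b34. With group and prefix removed, the highest was with Ugt2a3, at 0.741, and Ugt2b34 had 0.563. These are descriptions over livers that share groups, arrays and normalization. Genes outside the cluster varied with Ugt2b38 as well, many of them more closely than most members, as the ranks given below show.

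**Figure D5:**
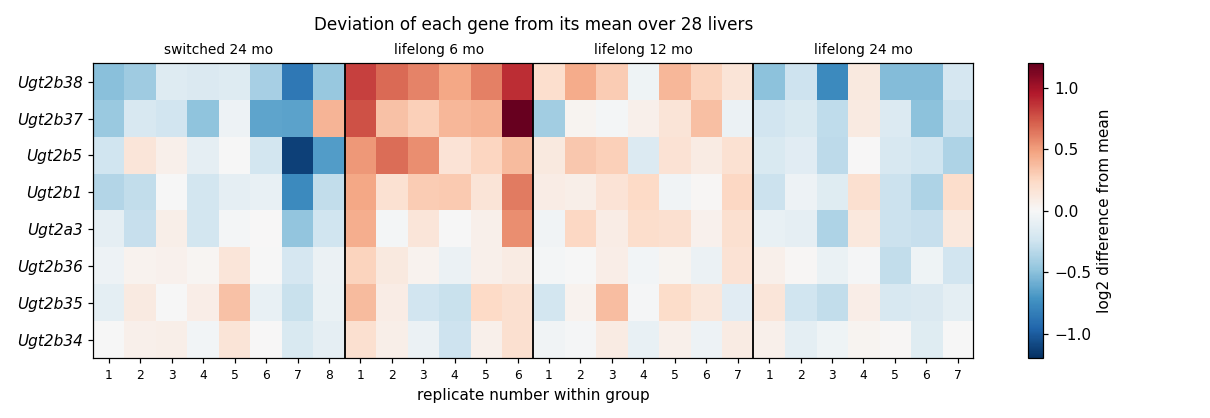
Deviation of each member (rows) from its mean over the 28 livers (log2, colour), with the livers as columns by group and replicate number. The column of switched replicate 7 holds the lowest value of its group in all 8 rows, and the rows of Ugt2b38 and Ugt2b37 change most across the ages.

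Of all genes, the ones whose level followed Ugt2b38 most closely over the 28 livers were Spcs2, a signal peptidase complex subunit, with r = 0.862, Ube2q2, a ubiquitin-conjugating enzyme, with 0.861, Simc1 with 0.858 and Aox3, an aldehyde oxidase, with 0.857. Sarnp, an RNA-binding protein of mRNA export, Ugt2b5, Tmem30a, a subunit of lipid flippases, and Yars2, the mitochondrial tyrosyl-tRNA synthetase, followed with 0.853 each. Ugt2b1 ranked 10 and Ugt2a3 ranked 23 by this measure. With group and prefix removed, r was lower for each of them, at 0.485 for Spcs2, 0.681 for Ube2q2, 0.467 for Simc1, 0.484 for Aox3, 0.662 for Sarnp, 0.663 for Ugt2b5, 0.343 for Tmem30a and 0.589 for Yars2. On that scale Ugt2a3 ranked 9. The other members ranked lower: Ugt2b5 85, Ugt2b1 112, Ugt2b35 293, Ugt2b34 386, Ugt2b37 467 and Ugt2b36 793. Many genes outside the cluster therefore followed Ugt2b38 more closely than most members did.

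Genes around the glucuronidation step were read at 24 against 6 months. A list was drawn up for UDP-glucuronate supply and glucuronide removal. Whether each gene on it acts on UDP-glucuronate or glucuronides was not looked at. Of its 14 measured genes, 0 passed as higher and 2 as lower, beside 2.10% and 2.63% of all probe sets. Their median difference was 0.03, beside -0.0016 over all genes. Abcg2, an efflux pump of the bile canaliculus, fell by 0.81 (SE 0.148, limma adjusted p = 0.00273), with 8.39 ± 0.269 at 24 months and 9.20 ± 0.249 at 6 months (SD, n = 7 and 6). Slc35b1, a nucleotide transporter of the endoplasmic reticulum, fell by 0.49 (SE 0.132, limma adjusted p = 0.0301) but lost the call under 4 of 11 alternative settings and in 7 of 13 fits with 1 liver left out (limma adjusted p up to 0.0991). With prefix G150 alone, neither passed. Ugdh, which makes UDP-glucuronate, differed by 0.24 (limma adjusted p = 0.442). Of 14 other genes of the Ugt superfamily listed, 2 had a probe set of their own, Ugt3a1 and Ugt8a, and neither passed, with a median difference of -0.07. Both are known to use sugars other than glucuronic acid, so no glucuronosyltransferase outside the cluster was read here. None of 12 measured transcription factors known to act on these genes passed, and their median difference was 0.03.

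Genes known to be expressed more in male liver were set beside the members, since Ugt2b38 and Ugt2b1 have that pattern. Of 19 measured male-biased genes other than the members, 7 passed as lower and 0 as higher at 24 against 6 months, 18 were below 0, and the median difference was -0.68. In that comparison, 2.63% of all probe sets passed as lower and 2.10% as higher, and the median over all genes was -0.0016. Gstp1, a glutathione transferase, fell by 0.56 (limma adjusted p = 0.00407), Ces2b, a carboxylesterase, by 0.88 (limma adjusted p = 0.00686) and Cyp2d9, a male-biased cytochrome P450, by 0.43 (limma adjusted p = 0.0122). None of these 3 passed with prefix G150 alone, nor did Ces2b with only the 2 groups fitted or Cyp2d9 without replicate 6 of 6 months (limma adjusted p = 0.0533). Of 17 measured female-biased genes, 5 passed as higher and 0 as lower, and the median difference was 0.20, or 0.65 without the dimmest 30% of probe sets. Cyp17a1, a steroid hydroxylase and lyase, rose by 2.11 (limma adjusted p = 4.32e-05), and the organic anion transporter genes Slc22a27 and Slc22a26 rose by 2.18 and 2.00 (limma adjusted p = 0.00078 and 0.00317). With prefix G150 alone, Slc22a26 did not pass (limma adjusted p = 0.107). Between 12 and 6 months, 1 female-biased gene passed as higher, Cyp17a1, which lost the call in 7 of 13 fits with 1 liver left out (limma adjusted p up to 0.08), and no male-biased gene passed. Between 24 and 12 months, none of either list passed. Of all probe sets, 0.591% passed between 12 and 6 months and 0.0253% between 24 and 12 months.

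In switched against lifelong livers the sex-biased lists and the cluster gave different values. Of all probe sets, 0.0197% passed in this comparison in either direction, and the median over all genes was -0.0025. The median of the male-biased genes was -0.54, with 17 of 19 below 0 and 2 passing as lower, Susd4 at -1.24 and Cyp2d9 at -0.54 (limma adjusted p = 0.0341 each). The median of the female-biased genes was 0.57, with 2 passing as higher, Cyp2b13 at 3.26 (limma adjusted p = 0.000118) and Hao2 at 1.80 (limma adjusted p = 0.0094). Susd4 and Cyp2d9 each lost the call under 5 of 11 alternative settings, the replicate block among them (limma adjusted p = 0.101 and 0.164), and in 9 of 15 fits with 1 liver left out. Cyp2b13 lost it under 1 setting and in 0 of 15 such fits. Hao2 lost it under 2 settings and in 2 of 15 such fits, without replicate 4 or replicate 7 of lifelong 24 months (limma adjusted p = 0.0559 and 0.0525). The member median was -0.0069 and Ugt2b38 differed by -0.02. The gap between the lists and the cluster was not tested, and this comparison shares the lifelong livers of 24 months with that of 24 against 6 months.

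Markers of other cell types moved with age beside these results. In bulk liver, fewer cells of a type and less RNA per cell cannot be told apart. At 24 against 6 months, 7 of 9 B and plasma cell markers passed as higher, beside 2.10% of all probe sets. Their median difference was 0.84, beside -0.0016 over all genes. Mean levels over the list were 5.32 to 6.71 at 24 months and 4.81 to 5.11 at 6 months. Of 14 Kupffer cell and macrophage markers, 3 passed as higher, and the median difference was 0.44. Their mean levels were 7.57 to 8.94 at 24 months and 7.61 to 8.04 at 6 months. None passed among 9 markers of T and NK cells, 6 of neutrophils, 8 of endothelial cells, 8 of stellate cells, 5 of cholangiocytes and 3 of pancreatic acinar cells. The medians of these lists ran from -0.08 in endothelial cells to 0.345 in neutrophils, and 4.73% of all probe sets passed in either direction. The array values hold no true 0, so absence of a marker could not be scored. The part of these cells in the differences of the cluster was not tested.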

How the data were processed

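Liver RNA of 28 mice, each a separate animal, was measured on single-colour whole-transcript arrays. The deposited values are log2 expression values made by the authors with RMA, per the submitters' processing notes; its version and the genome build are not given in the sources used here. They were used as deposited, with no detection call. Of 35556 probe sets, 21218 name 1 gene, 1881 several and 12457 none, and the brightest 1-gene probe set stood for a gene. The number of arrays limits the precision.

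Group and array-name prefix were fixed terms of a linear model fitted to all 28 arrays with limma 3.58.1 under R 4.3.3, with empirical Bayes moderation; the code was tested on simulated data. For each comparison, two-sided p-values of all probe sets were adjusted together after Benjamini and Hochberg, with 0.05 as threshold. Standard errors (SE) are moderated, and within-prefix values are differences of group means. The members, the lists of functions, sex-biased genes and cell markers, and the tests were chosen with earlier results of these data known. Genes were named as members, as up to 3 passing genes of a list with the smallest p, or as the 8 genes most like Ugt2b38. Ugdh was named outside this rule, after its values had been seen.

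Promoter windows came from RefSeq on GRCm38.p6 and were aligned globally with Biopython 1.88 (match 2, mismatch -1, gap opening -5, gap extension -1). The alternatives were no prefix term, prefix G150 alone, only the 2 groups compared, the lowest 30% of probe sets left out, quantile normalization repeated, arrays centred on their median, trend with robust moderation, array weights, a replicate block, 1-gene probe sets alone, 2 arrays with a suffixed name left out, and each array left out in turn.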

Additional observations from a re-analysis of the deposited data

Results flagged for a closer look

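In Ugt2b1, switched replicate 7 lay apart from the other 7 livers of its group. Its level was 10.85, against a group median of 11.36, and its gap to the nearest liver was 0.561 of the range of the group. Among 32 combinations of a member and a group this was the one beyond Dixon's 95% limit, and chance passes that limit in about 1 of 20 groups. The same liver had the highest mean deviation of Kupffer cell and macrophage markers in its group, 1.46, and of T and NK cell markers, 0.64. It was also the highest for endothelial markers, 0.34, and pancreatic acinar markers, 0.15. It was the lowest for the transcription factors, -0.21, the list for UDP-glucuronate supply and glucuronide removal, -0.20, and the other Ugt genes, -0.19. Its hepatocyte markers deviated by -0.05, within the group's range of -0.08 to 0.03. The part of these markers and lists in its low member values was not tested.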

How the results depend on the processing

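At 24 against 6 months, all 8 members kept their negative sign under every setting run, including each left-out liver. The number of members passing was 4, 1 with prefix G150 alone (Ugt2b38, chosen for this fall, and so 0 of the other 7), and 3 to 5 with 1 liver left out; Ugt2b1 also missed the threshold with only the 2 groups fitted (limma adjusted p = 0.0632). Over all probe sets, 1681 passed at 24 against 6 months, 194 with G150 alone, 736 with only the 2 groups, and 831 to 2370 with 1 liver left out. At 12 against 6 months 210 passed, 108 without the prefix term, 0 with G150 alone (2497 at an unadjusted limma p under 0.05), 22 with only the 2 groups, 518 with array weights, 122 with the replicate block, 332 over 1-gene probe sets, 46 without the 2 arrays of suffixed name, and 7 to 546 with 1 liver left out. At 24 against 12 months 9 passed, 3 without the prefix term, 0 with G150 alone (3415 unadjusted), 1 with only the 2 groups, 33 without the lowest 30% of probe sets, 23 with array weights, 0 with the replicate block (3771 unadjusted), 31 over 1-gene probe sets, 39 without the suffixed arrays, and 1 to 124 with 1 liver left out. For switched against lifelong livers 7 passed, 2 with G150 alone, 0 with only the 2 groups (2492 unadjusted), 2 with array weights, 2 with the replicate block, 1 without the suffixed arrays, and 1 to 36 with 1 liver left out. These counts move by more than 1.5 times, and the cause was not tested beyond the smaller number of arrays or probe sets that some settings hold.

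Signs turned only for members near 0. For switched against lifelong livers, Ugt2b37 was -0.067 without the prefix term, -0.16 with G150 alone, -0.019 with only the 2 groups, -0.014 after repeated quantile normalization, -0.0044 with centred arrays and -0.069 with the replicate block. In the same comparison, Ugt2b38 was 0.059 with G150 alone, 0.026 with array weights and 0.016 without the suffixed arrays. Ugt2a3 was 0.044 with G150 alone, 0.023 with array weights, 0.023 with the replicate block and 0.033 without the suffixed arrays. At 12 against 6 months, Ugt2b34 was 0.0021 after repeated quantile normalization and 0.0043 with array weights, and Ugt2b35 was 0.020 with array weights and 0.018 with the replicate block. With 1 liver left out, switched against lifelong values ran from -0.096 to 0.070 in Ugt2b38, -0.15 to 0.025 in Ugt2b5, -0.0048 to 0.046 in Ugt2b34, -0.074 to 0.092 in Ugt2b37 and -0.057 to 0.037 in Ugt2a3. Values at 12 against 6 months ran from -0.080 to 0.027 in Ugt2b34, -0.094 to 0.054 in Ugt2b35 and -0.13 to 0.0023 in Ugt2a3.

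Replicate numbers did not pair the livers: over 39 same-number pairs the correlation of deviations ran from -0.14 to 0.137, and 3 of 28 livers correlated best with one of their own number. No further probe set of a member was at hand for the planned check against the brightest one.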
